A study of Homo sapiens with 6 samples.

Results

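The genes described here make, sense, take up and export cholesterol: 19 enzymes of its synthesis, 9 genes of sterol sensing and uptake, and 3 of export and storage. They were chosen by name from the known pathway, with earlier results of these data known. All 31 were found among the 59050 entries of the expression table. Bulk RNA-seq was made from HFF, a line of cultured human fibroblasts. All cells carried ER:RAS (G12V), oncogenic H-RAS joined to an oestrogen receptor domain, which had been brought in by virus at about passage 18 and selected for with 200 µg/ml neomycin. In 3 libraries the cells had received 100 nM 4-hydroxytamoxifen (4-OHT), which switches the fusion on, and were harvested as senescent a week later. The other 3 libraries came from cells of the same kind given DMSO, the solvent. Neither the promoter of the transgene nor the number of clones in a line is stated in the labels. Effects of 4-OHT itself and of the activated fusion cannot be told apart, since the groups differ in both.

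Cells build cholesterol from acetyl-CoA by way of mevalonate, isoprenoids, squalene and lanosterol. The transcription factor SREBP2 (gene SREBF2) switches on most of these enzymes when sterols in the endoplasmic reticulum run low. SCAP carries the factor to the Golgi for cleavage, and the INSIG proteins hold SCAP back when sterols are plentiful. Liver X receptors answer to oxysterols and switch on the exporters ABCA1 and ABCG1 and the ubiquitin ligase MYLIP.

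In the 4-OHT libraries most of the synthesis enzymes were lower, from the entry enzymes ACAT2 and HMGCS1 to LSS, HSD17B7 and EBP further along. The sterol sensor INSIG1 and the regulator SREBF1 fell with them. The exporter ABCA1 went the other way and was 2.42-fold higher. In limma's linear models, which share information on variance between genes, 17 of the 30 members tested fell and 1 rose at an adjusted p under 0.05, where 29.9% of all 15272 genes tested fell and 19.8% rose (49.6% called in all). By role, 11 of 19 synthesis enzymes fell and none rose in this test (0 higher also at an unadjusted p under 0.05). Of the 9 genes of sensing and uptake 6 fell and none rose (0 higher also at an unadjusted p under 0.05). Of the 2 tested genes of export and storage 1 rose and none fell (0 lower also at an unadjusted p under 0.05). The median log2 fold change was -0.44 over the synthesis enzymes and -0.36 over sensing and uptake, beside -0.09 over all genes tested.

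Levels are TPM, a share of each library's transcripts after correction for transcript length. A log2 fold change is the difference of the group means of log2(TPM + 1), 4-OHT minus DMSO, and adjusted p-values are over all genes tested. With bulk RNA, fewer cells of a type and less RNA per cell cannot be told apart. TPM bring each library to about the same total but carry no further scaling between libraries. Scaling by the median of ratios moved the log2 fold changes upward by a median of 0.113. As deposited, 60.2% of all called genes were lower, against 47.0% under that scaling (4039 higher, 3579 lower). The members then stood at 15 lower and 1 higher, where 23.5% of all genes fell and 26.5% rose (50.0% called in all).

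**Figure D1:**
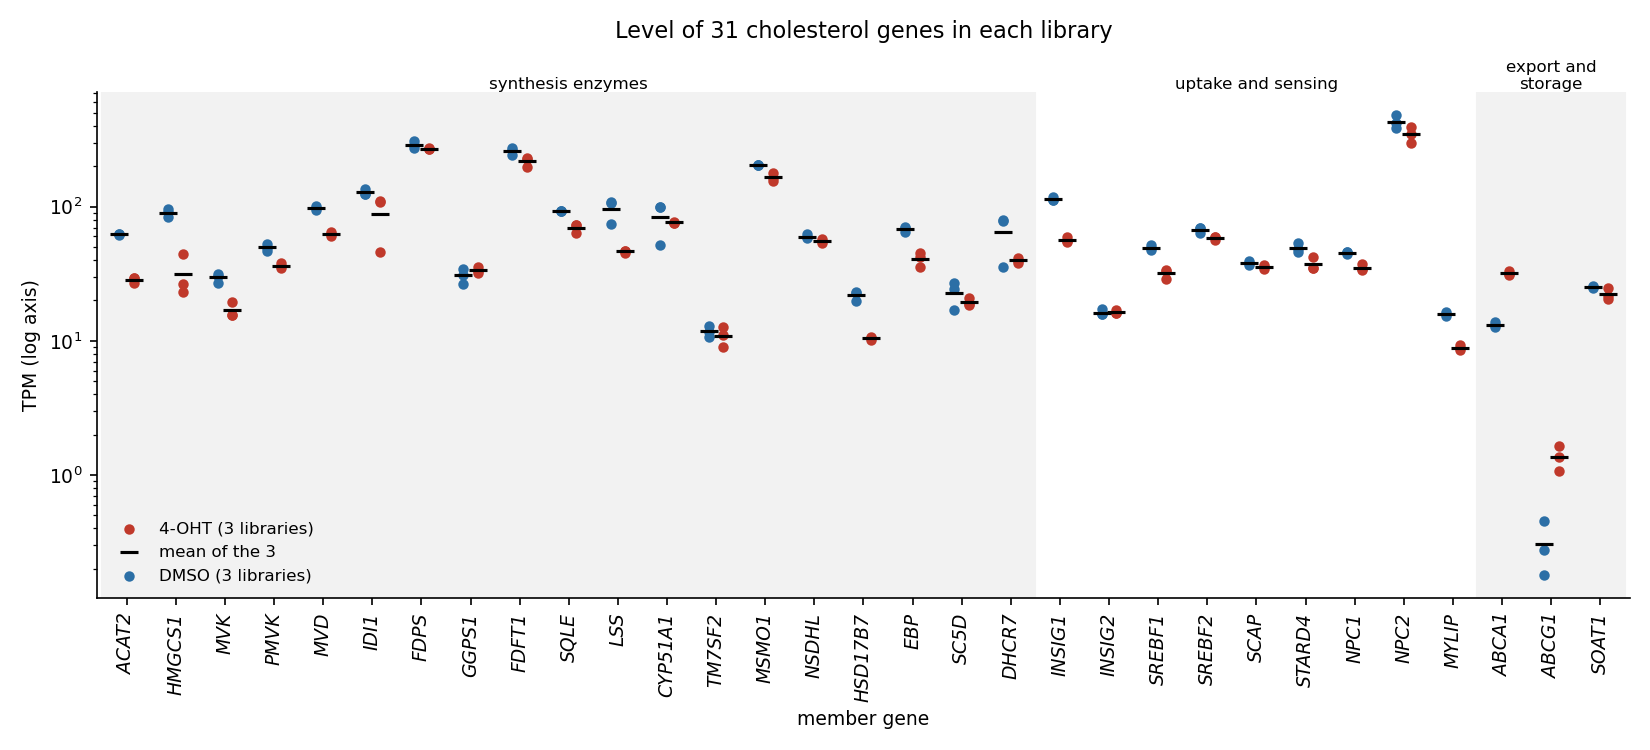
Level of each of the 31 genes in each library, in TPM on a log axis, with DMSO libraries in blue, 4-OHT libraries in red and a black bar at the mean of each group of 3. ABCA1 and ABCG1 are the members whose 4-OHT libraries all lie above their DMSO libraries, as held for 23.8% of all genes, and 21 members have all 3 below, as held for 35.2%.

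Promoters of 4 members are shown because these genes mark the ends of the pattern: the regulator SREBF2, HMGCS1 with the largest decrease among the members, the sensor INSIG1, and ABCA1, the member that rose. Each line runs 5′ to 3′ on the strand of the gene, from 250 bases before the RefSeq start (GRCh38.p14) to the base before the gene's first start in RefSeq or GENCODE 29. Capitals mark the sterol regulatory element consensus TCACNCCAC, the E-box CACGTG, and the CCAAT box or its reverse complement. The positions are chr22:41832855-41833078 (plus strand) for SREBF2, chr5:43313513-43313662 (minus) for HMGCS1, chr7:155297628-155297775 (plus) for INSIG1 and chr9:104928238-104928405 (minus) for ABCA1.
SREBF2: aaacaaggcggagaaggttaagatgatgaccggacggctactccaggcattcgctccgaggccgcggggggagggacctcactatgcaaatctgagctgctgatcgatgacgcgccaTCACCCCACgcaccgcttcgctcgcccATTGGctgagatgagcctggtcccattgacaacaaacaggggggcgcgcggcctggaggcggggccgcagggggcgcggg
HMGCS1: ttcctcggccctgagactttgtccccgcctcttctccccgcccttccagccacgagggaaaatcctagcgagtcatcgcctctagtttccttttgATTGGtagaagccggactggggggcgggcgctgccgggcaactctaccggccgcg
INSIG1: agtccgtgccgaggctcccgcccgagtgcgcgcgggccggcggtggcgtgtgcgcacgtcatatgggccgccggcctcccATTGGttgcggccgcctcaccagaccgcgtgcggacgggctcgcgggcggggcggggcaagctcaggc
ABCA1: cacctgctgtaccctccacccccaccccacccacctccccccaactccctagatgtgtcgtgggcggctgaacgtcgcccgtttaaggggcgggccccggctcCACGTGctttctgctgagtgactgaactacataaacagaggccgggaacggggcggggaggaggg

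The SREBF2 promoter holds TCACCCCAC, a match to the sterol regulatory element, from 133 to 125 bases before the RefSeq start, with a reversed CCAAT box at 106 to 102. The stretches of HMGCS1 and INSIG1 each hold a reversed CCAAT box, at 155 to 151 and at 170 to 166 bases, and that of ABCA1 an E-box at 147 to 142. Nearer the RefSeq start, past the end of the printed stretches, INSIG1 also has an E-box at 55 to 50 bases. HMGCS1 has a further reversed CCAAT box there, at 100 to 96. The printed motifs therefore do not set ABCA1 apart by its E-box. Of the 31 members 27 were in the RefSeq promoter table, 16 of them synthesis enzymes. All 250 bases before each RefSeq start were searched on both strands, with a gene counted where any of its listed starts held a match. CCAAT stood before 14 of the 16 enzymes (87.5%) and before 37.0% of all 27305 genes of the table. GGGCGG, the box of the factor SP1, stood before 15 of the 16 (93.8%) and before 46.2% of all genes. CACGTG stood before 1 of the 16 (6.2%), 4 of the 27 members (14.8%) and 7.73% of all genes. TCACNCCAC stood before 0 of the 16, 1 of the 27 members (3.7%) and 1.09% of all genes. CCAAT and GGGCGG stood before 20 and 26 of the 27 members. The 27305 genes were not limited to those expressed here, and the shares among expressed genes alone were not computed. Whether the enzymes differ from other expressed genes in these boxes was not tested. The direct repeat DR4, bound by liver X receptors and searched as 2 copies of AGGTCA with 4 bases between, stood before 0 of the 27 and 0.0183% of all genes. Only 5 of the 27305 genes held this exact string, so a count of 0 does not show that such elements are absent. Elements that differ from the letters searched were not counted, for TCACNCCAC as well as DR4. Such matches are letters in a window and show no binding, and some share bases, as a pair of GGGCGG boxes before INSIG1 do.

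The early, mevalonate arm of the pathway held the largest decreases. HMGCS1 (chromosome 5, 43289395 to 43313512, GRCh38) makes the HMG-CoA from which mevalonate is formed. It was read at 26.7, 23.03 and 44.7 TPM with 4-OHT against 90.8, 83.9 and 96.9 with DMSO. Every 4-OHT library was below every DMSO library, with replicate 3 the highest of its group. The log2 fold change was -1.55 (SE 0.221, adjusted p = 0.00104), from means of 31.5 ± 11.6 and 90.5 ± 6.52 TPM (SD, n = 3), 2.88-fold apart. ACAT2 (chromosome 6, 159760328 to 159779055), the cytosolic thiolase that starts the pathway, stood at 26.9, 29.4 and 29.2 against 61.9, 63.04 and 62.9. The libraries of each group lay close together and the mean was 2.20-fold lower in 4-OHT (log2 fold change -1.11, SE 0.0565, adjusted p = 6.53e-06).

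The kinases and the decarboxylase that turn mevalonate into isopentenyl diphosphate fell less. MVK, mevalonate kinase, was at 15.6, 19.6 and 15.7 with 4-OHT against 26.9, 30.5 and 31.7 with DMSO (log2 fold change -0.78, adjusted p = 0.000955). PMVK, the next kinase, was at 38.1, 36.1 and 34.7 against 49.4, 46.6 and 53.03 (-0.44, adjusted p = 0.00154). MVD, the decarboxylase, was at 60.4, 64.4 and 62.3 against 101.2, 94.4 and 98.00 (-0.64, adjusted p = 5.04e-05). In each of the 3 genes the groups did not overlap, as held for 35.2% of all genes in this direction.

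The following steps of the arm were not called. IDI1, which isomerises isopentenyl diphosphate, was read at 111.2, 45.7 and 108.6 with 4-OHT against 125.5, 136.1 and 123.6 with DMSO. All 4-OHT libraries were lower, but replicate 2 alone was far below the other two, and the test gave a log2 fold change of -0.64 with an SE of 0.317 (adjusted p = 0.138). Without that library the change was -0.22 (adjusted p = 0.0268; 0.0268 to 0.363 across settings). FDPS, which makes farnesyl diphosphate, was at 268.9, 274.5 and 267.3 against 309.2, 274.8 and 286.1 (-0.10, adjusted p = 0.138). GGPS1, at the branch to geranylgeranyl diphosphate, was at 33.3, 32.1 and 35.7 against 34.4, 31.2 and 26.6, and the groups overlapped (log2 fold change 0.13, 95% confidence interval -0.10 to 0.37). Under median-of-ratios scaling the FDPS difference turned to 0.02, and under quantile normalization it was called (-0.18, adjusted p = 0.019; 0.019 to 0.769 across settings).

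In the squalene and sterol arm 6 of 11 enzymes fell, where 29.9% of all genes did. Under median-of-ratios scaling 5 fell, where 23.5% of all genes did. LSS, lanosterol synthase, closes the sterol rings. It was at 45.2, 47.1 and 46.9 with 4-OHT against 108.8, 107.2 and 73.9 with DMSO. The DMSO replicate 3 was lower than the other two and still above every 4-OHT library (log2 fold change -1.02, SE 0.143, adjusted p = 0.000951). HSD17B7, a keto-reductase of the demethylation steps, was at 10.7, 10.5 and 10.1 against 19.8, 22.8 and 23.2 (2.10-fold lower, adjusted p = 7.82e-05). EBP, the sterol isomerase, which is also known as a binding protein of tamoxifen-like drugs, was at 45.3, 41.9 and 35.7 against 65.3, 69.2 and 70.95 (-0.73, adjusted p = 0.000506). The groups of HSD17B7 and EBP did not overlap.

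The other called enzymes of this arm changed by less. SQLE, squalene epoxidase and a rate-limiting step, was at 73.2, 73.05 and 63.6 against 93.3, 92.3 and 93.6 (-0.41, adjusted p = 0.00164). MSMO1, which removes methyl groups from the ring, was at 156.1, 162.4 and 177.1 against 203.7, 204.7 and 203.4 (-0.30, adjusted p = 0.0026). FDFT1, squalene synthase, was at 199.1, 228.0 and 230.3 against 266.5, 244.9 and 272.1 (-0.25, adjusted p = 0.0196). Scaling by the median of ratios ended the FDFT1 call (-0.13, adjusted p = 0.139, within 0.00427 to 0.139 across settings). So did testing all genes unfiltered (0.0835), dropping the variance trend (0.0525), and leaving out DMSO replicate 1 (0.0594) or 3 (0.064).

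Of the 5 uncalled enzymes of the arm, DHCR7 and CYP51A1 each had a DMSO library far from the others. DHCR7, which makes the last reduction to cholesterol, was at 39.6, 41.7 and 38.02 with 4-OHT against 80.1, 78.6 and 35.6 with DMSO. The DMSO replicate 3 lay below all 4-OHT libraries, so the groups overlapped (-0.60, SE 0.289, adjusted p = 0.126). Without it the log2 fold change was -0.98 (adjusted p = 0.000111; 0.000111 to 0.341 across settings). CYP51A1, the lanosterol demethylase, was at 76.1, 76.2 and 77.2 against 98.8, 52.2 and 100.3 (-0.07, adjusted p = 0.828). Without DMSO replicate 2 it was -0.38 (adjusted p = 0.00167; 0.00167 to 0.911 across settings), while without DMSO replicate 1 or 3 it was 0.08 or 0.09. SC5D, the desaturase before DHCR7, was at 18.6, 21.00 and 18.7 against 24.3, 26.98 and 17.1 (-0.20, adjusted p = 0.341), and at -0.38 without DMSO replicate 3 (adjusted p = 0.0181; 0.0181 to 0.742 across settings). NSDHL, a dehydrogenase of the demethylation steps, was at 57.2, 55.2 and 53.9 against 62.6, 58.3 and 59.1 (-0.11, adjusted p = 0.119), and TM7SF2, a sterol reductase, at 11.1, 8.97 and 12.8 against 13.00, 11.6 and 10.8 (-0.11, 95% confidence interval -0.43 to 0.22).

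**Figure D2:**
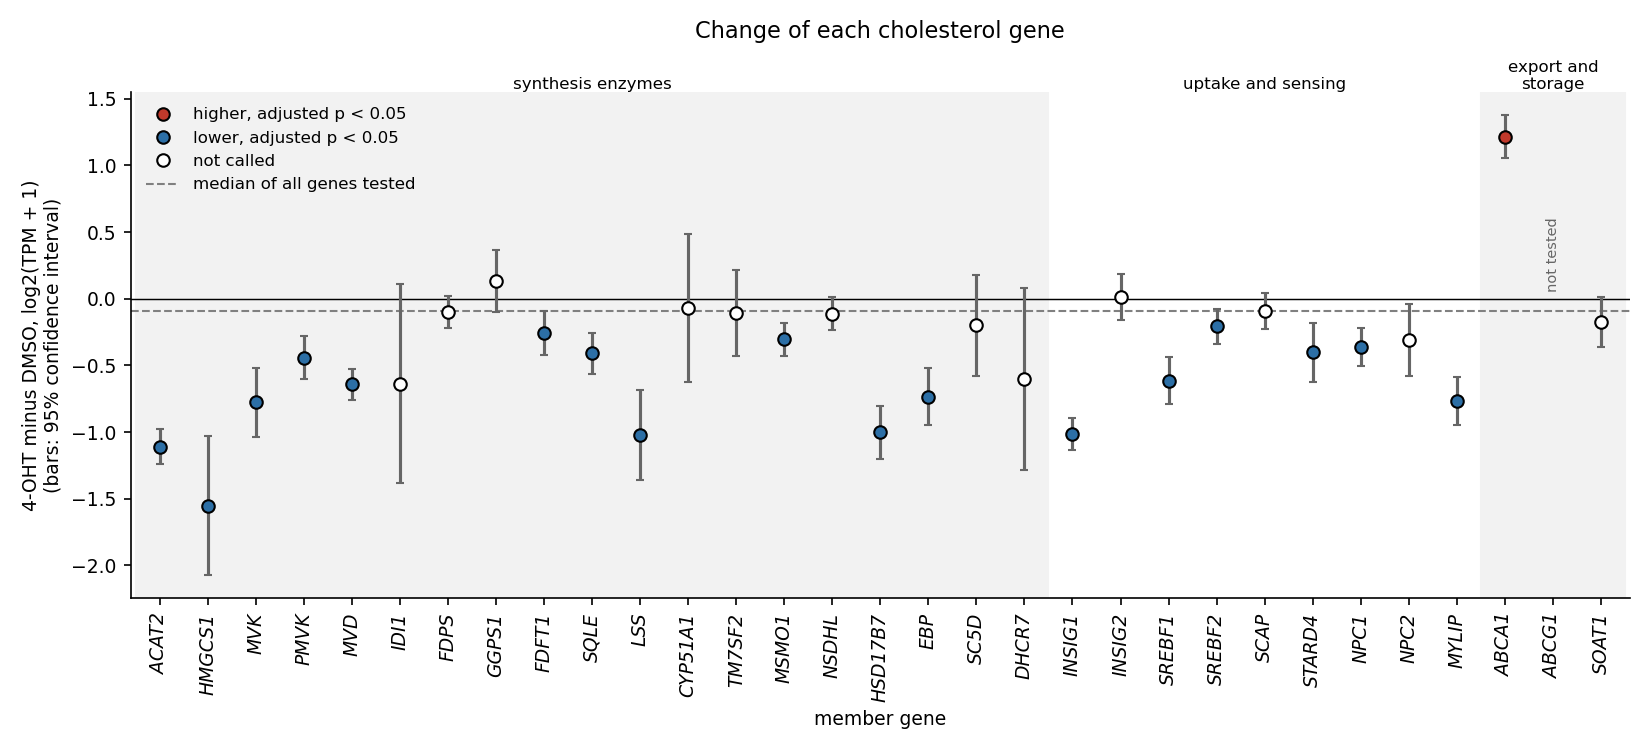
Log2 fold change of each tested member (from log2(TPM + 1)) with its 95% confidence interval, blue where lower and red where higher at an adjusted p under 0.05, white where not called. HMGCS1 lies lowest at -1.55 and ABCA1 highest at 1.22, and the dashed line is the median of all genes tested (-0.09).

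Lone libraries that departed from their group were not the same for each gene. Among the 30 members with a mean of at least 10 TPM, 5 had a highest library at least 1.5 times the lowest of the same group (16.7%), as had 9.28% of 9077 genes of that level. They were HMGCS1 (1.94 times) and IDI1 (2.43 times) in 4-OHT, and CYP51A1 (1.92 times), DHCR7 (2.25 times) and SC5D (1.58 times) in DMSO. The library apart was replicate 3 for HMGCS1, replicate 2 for IDI1, replicate 2 for CYP51A1 and replicate 3 for DHCR7 and SC5D. In DMSO replicate 3 DHCR7 stood at 0.453 of its group median, LSS at 0.689, SC5D at 0.702 and GGPS1 at 0.853. The other 15 enzymes lay between 0.932 (TM7SF2) and 1.07 (HMGCS1 and PMVK) there. The cause was not tested. Summed over the 19 enzymes the levels were 1313, 1291 and 1363 TPM in 4-OHT and 1836, 1729 and 1739 in DMSO, with no overlap.

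**Figure D3:**
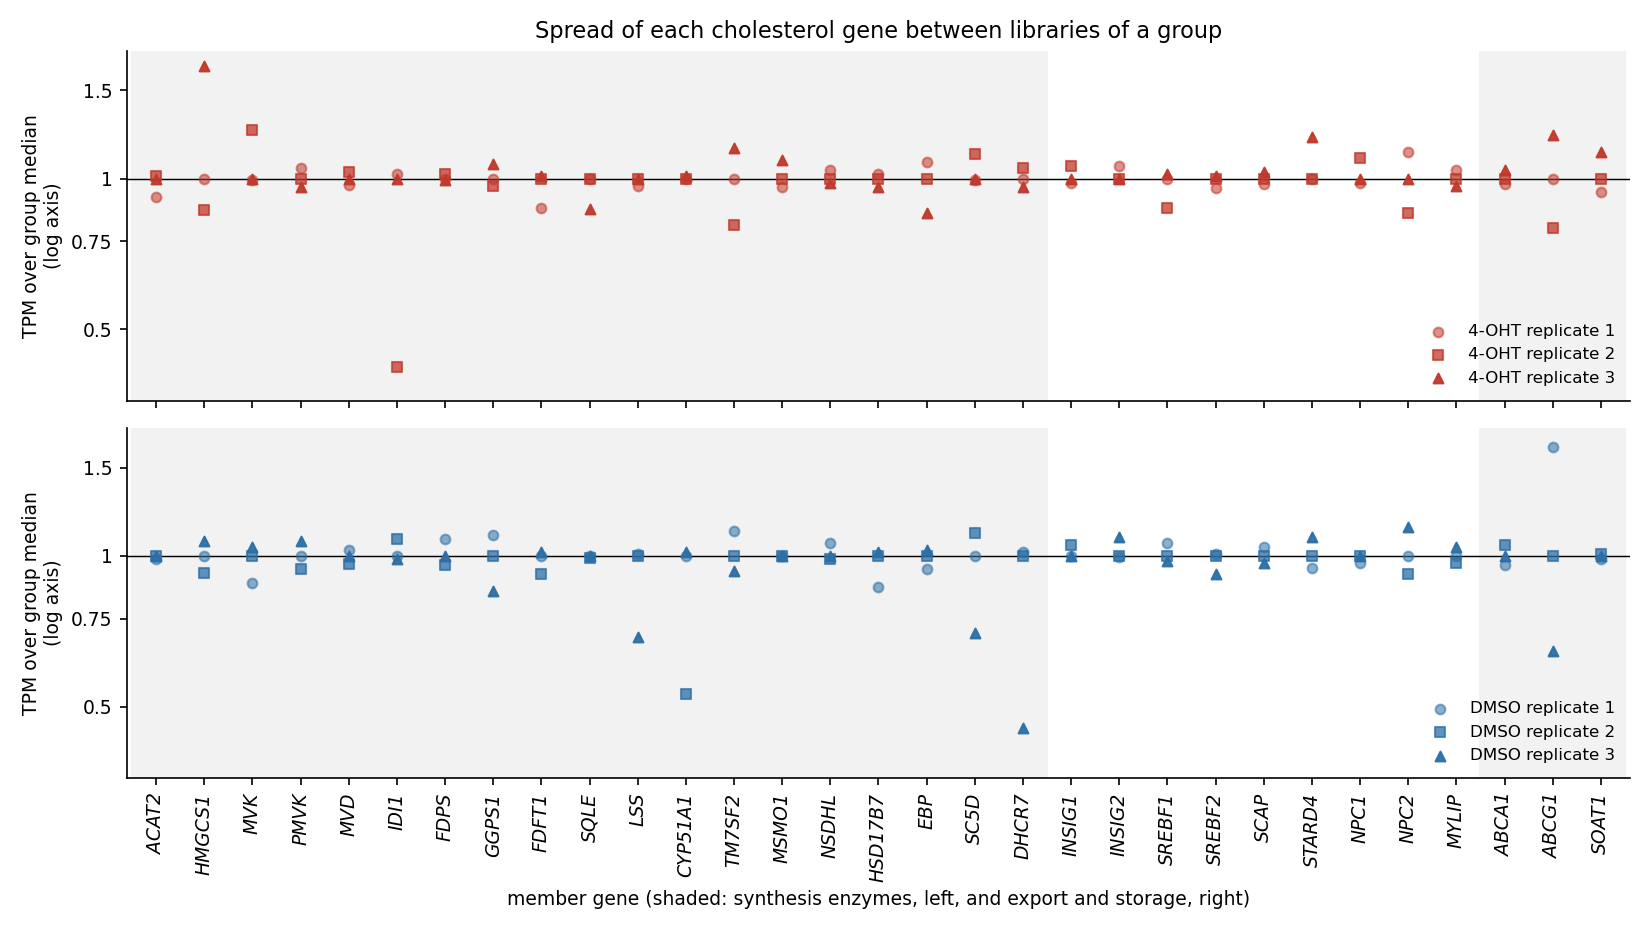
Level of each member in each library divided by the median of its group, on a log axis, 4-OHT above and DMSO below, with a marker shape for each replicate. Most points lie near 1, while IDI1 in 4-OHT replicate 2 and DHCR7 in DMSO replicate 3 stand far below.

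Among the sensors INSIG1 fell and INSIG2 was not called. INSIG1 (chromosome 7, 155297776 to 155310235), itself a target of SREBP, was read at 54.5, 59.00 and 55.7 TPM with 4-OHT against 112.6, 118.7 and 112.8 with DMSO. The groups were well apart and the mean 2.03-fold lower (log2 fold change -1.01, SE 0.0509, adjusted p = 6.11e-06). INSIG2, which does the same task but is not switched on by SREBP, was at 17.1, 16.1 and 16.1 against 15.8, 15.8 and 17.2. Its groups overlapped and its log2 fold change was 0.02, with a 95% confidence interval of -0.16 to 0.19. The ratio of INSIG1 to INSIG2 was 3.19, 3.66 and 3.45 in 4-OHT and 7.14, 7.50 and 6.56 in DMSO, without overlap (exact permutation test, two-sided, p = 0.1, the smallest that 3 against 3 can give, and 0.1 adjusted over the 3 ratios compared). In proportion, the INSIG1 groups lay further apart than any of the INSIG2 libraries did. The separation of this ratio and its p-value were therefore fixed by INSIG1 and add nothing to its values.

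Both SREBP genes fell. SREBF1, whose product mostly drives fatty acid synthesis, was at 33.3, 29.1 and 33.9 with 4-OHT against 51.96, 48.9 and 47.8 with DMSO (-0.61, SE 0.0752, adjusted p = 0.000503). SREBF2, the regulator of the cholesterol enzymes, was at 56.5, 59.02 and 59.4 against 69.6, 69.2 and 63.6 (-0.21, adjusted p = 0.0183). Scaling by the median of ratios ended that call (-0.09, adjusted p = 0.217, within 0.0101 to 0.217 across settings), as did leaving out 4-OHT replicate 1 (0.0583) or DMSO replicate 1 (0.0581) or 2 (0.0606). The ratio of SREBF1 to SREBF2 was 0.590, 0.492 and 0.571 in 4-OHT and 0.747, 0.706 and 0.752 in DMSO (exact permutation p = 0.1). The gap between the SREBF1 groups was in proportion wider than the whole range of SREBF2. The separation of this ratio was therefore fixed by SREBF1 and adds nothing to its values. SCAP, their escort, was at 34.6, 35.5 and 36.6 against 39.4, 37.8 and 36.6 (-0.09, adjusted p = 0.234).

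Of the genes that move sterol or act on its uptake, STARD4, NPC1 and MYLIP fell and NPC2 was not called, where 29.9% of all genes fell. STARD4, which carries cholesterol between membranes and is an SREBP target, was at 34.8, 34.8 and 42.2 with 4-OHT against 46.2, 48.8 and 53.4 with DMSO (-0.40, adjusted p = 0.0103). NPC1, which lets cholesterol out of the lysosome, was at 33.5, 37.5 and 34.2 against 44.3, 45.8 and 45.9 (-0.36, adjusted p = 0.00246). Its soluble partner NPC2 was the most abundant member, at 392.6, 297.1 and 348.3 against 419.6, 387.0 and 479.6, and was not called (-0.31, adjusted p = 0.0575). The NPC2 groups overlapped, and it was called without 4-OHT replicate 1 (adjusted p = 0.0243) or DMSO replicate 2 (0.0458; 0.0243 to 0.223 across settings). MYLIP, which marks lipoprotein receptors for degradation, was at 9.25, 8.86 and 8.57 against 15.8, 15.3 and 16.4, well apart (-0.77, SE 0.0766, adjusted p = 0.000181).

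Of the export genes ABCA1 rose. ABCA1 (chromosome 9, 104781002 to 104928237), which passes cholesterol to apolipoproteins, was at 31.01, 31.7 and 33.1 TPM with 4-OHT against 12.6, 13.8 and 13.1 with DMSO. The means were 31.9 ± 1.06 and 13.2 ± 0.614 TPM (SD, n = 3). It was higher in each 4-OHT library (log2 fold change 1.22, SE 0.0678, adjusted p = 9.65e-06). ABCG1, which passes cholesterol to lipoprotein particles, was low in both groups, at 1.35, 1.08 and 1.65 against 0.458, 0.277 and 0.179. With a mean of 0.832 TPM it was under the filter of 1 TPM and was left out of the test. With no filter on low values it was higher in 4-OHT (0.85, adjusted p = 0.0187, the sole setting that tested it). SOAT1, which esterifies cholesterol for storage, was at 20.5, 21.8 and 24.6 against 24.9, 25.4 and 25.3 (-0.17, adjusted p = 0.111), and at -0.25 without 4-OHT replicate 3 (adjusted p = 0.0346; 0.0346 to 0.561 across settings).

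ABCA1 and MYLIP are both known targets of the liver X receptors, and their values moved in opposite directions. ABCG1, another such target among the members, lay on the side of ABCA1 at a low level (means of 1.36 TPM with 4-OHT and 0.305 with DMSO). SREBF1, also a known target of these receptors, was lower, as MYLIP was. The ratio of ABCA1 to MYLIP was 3.35, 3.58 and 3.86 in 4-OHT and 0.798, 0.904 and 0.804 in DMSO (exact permutation p = 0.1). Neither gene's groups overlapped and the genes moved in opposite directions. The separation of this ratio and its p-value were therefore fixed by the values of each gene and add nothing to them. Of the receptors themselves, NR1H3 was at 3.22, 3.72 and 3.30 against 22.7, 20.7 and 19.9 (-2.32, adjusted p = 2.47e-06). NR1H2, the more abundant receptor, went the other way, at 71.1, 77.9 and 74.3 against 66.4, 63.9 and 62.8 (0.21, adjusted p = 0.0159). The NR1H2 call was lost without 4-OHT replicate 2 (0.17, adjusted p = 0.0539; 0.00167 to 0.0539 across settings).

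Some of these rows may hold reads of more than one gene. No source used here states the strand setting of the counting, and a strand setting would not part genes on the same strand. In GENCODE 29, exons of 15 of the 31 members overlap those of another gene, in 3 of them over at least 20% of their exon bases in a single partner. ACAT2 shares 33.9% of its exon bases with SOD2-OT1 on the opposite strand, at 0 to 0.904 TPM, and 26.5% with SOD2, a mitochondrial antioxidant enzyme, also on the opposite strand. SOD2 fell too (41.1, 48.5 and 56.3 against 86.6, 86.7 and 75.3 TPM). It shares 9.2% with TCP1, a chaperonin subunit at a far higher level that did not pass the test (269.0, 271.6 and 266.4 against 267.2, 281.0 and 279.2). CYP51A1 shares 79.4% with the same-strand entry AC000120.2, listed at 0 to 0.104 TPM in all libraries, and at 0 in 4-OHT replicate 3 and DMSO replicates 2 and 3. GGPS1 shares 37.3% with TBCE, also on its own strand, at 0.408 to 3.27 TPM. The HSD17B7 copy HSD17B7P2 was at 1.03, 1.40 and 0.757 against 4.06, 4.77 and 6.29 TPM and fell as well, and reads of such copies may be split uncertainly.

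The neighbouring pathways were read from 8 further lists, 93 genes in all, of which 91 were tested. Of these 34 fell and 19 rose, with 27 lower and 26 higher under median-of-ratios scaling. Over all genes tested 29.9% fell and 19.8% rose as deposited, and 23.5% and 26.5% under that scaling. In fatty acid synthesis 10 of 14 fell and 1 rose (7 and 1 under that scaling). SCD, the desaturase that makes oleate and an SREBP target, was at 112.3, 116.0 and 122.7 TPM with 4-OHT against 350.5, 365.9 and 362.8 with DMSO (-1.61, adjusted p = 5.42e-07). ELOVL5, an elongase, was at 90.4, 88.6 and 94.4 against 153.7, 156.9 and 152.0 (-0.75). Among the partners of the sterol enzymes 4 of 7 fell and none rose in limma's test (0 higher also at an unadjusted p under 0.05, and 1 higher without 4-OHT replicate 3). They included LBR, a sterol reductase that is also an inner nuclear membrane protein (8.60, 9.47 and 9.21 against 31.6, 33.3 and 34.4; -1.76), and FAXDC2, of the fatty acid hydroxylase family (3.94, 6.22 and 6.31 against 11.6, 10.9 and 11.9; -0.96).

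In the isoprenoid branch and prenylation 5 of 14 rose and 3 fell (7 and 2 under median-of-ratios scaling). As deposited, the share called was near the 49.6% of all genes, of which 19.8% rose and 29.9% fell. Under median-of-ratios scaling 26.5% of all genes rose and 23.5% fell. COQ2, which prenylates the ring of ubiquinone, was at 7.85, 10.5 and 9.59 against 35.02, 28.6 and 31.8 (-1.67), and RABGGTA, a subunit of the Rab prenyltransferase, at 24.3, 26.5 and 25.9 against 19.4, 15.6 and 16.9 (0.54). Of 10 genes of SREBP cleavage and INSIG turnover 1 rose and 2 fell, with 3 higher under median-of-ratios or quantile scaling and 2 higher without DMSO replicate 1 or 3. As deposited, the share called there was below the 49.6% of all genes. Under median-of-ratios scaling, with 3 higher and 2 lower, it was about the 50.0% of all genes. ERLIN1, a scaffold of INSIG and reductase degradation, was at 35.4, 37.02 and 39.8 against 75.5, 76.97 and 80.9 (-1.04), and FBXW7, which targets nuclear SREBP for degradation, at 23.6, 19.4 and 23.6 against 12.2, 14.04 and 14.3 (0.68).

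Of the 10 tested genes of liver X receptors and oxysterols 3 rose and 5 fell, where 19.8% and 29.9% of all genes did. CYP39A1, an oxysterol hydroxylase, was at 12.2, 15.8 and 16.1 against 1.09, 0.939 and 0.699 (3.03, and 1.73 with a pseudocount of 5), beside the fall of NR1H3. In lipoprotein uptake and endosomal release 1 of 11 rose and 5 fell, with 3 lower under median-of-ratios scaling, beside 19.8% higher and 29.9% lower of all genes (23.5% lower under that scaling). The scavenger receptors CD36 (1.72, 1.70 and 1.43 against 9.998, 11.7 and 11.8; -2.21) and OLR1 (0.483, 0.584 and 0.385 against 4.56, 4.29 and 5.17; -1.93) were the called genes with the lowest log2 fold changes there. At such levels the value depends on the pseudocount: with 5 it was -1.29 for CD36 and -0.82 for OLR1, and with 0.1 it was -2.71 and -3.04, while the means were 6.90-fold and 9.65-fold apart.

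In sterol transport between membranes 6 of 18 rose and 3 fell (8 and 2 under median-of-ratios scaling), but only 1 to 4 were higher when a library was left out (1 without 4-OHT replicate 1, 2 without 4-OHT replicate 3 or DMSO replicate 2, 3 without DMSO replicate 1, 4 without either of the others). As deposited, the share called was about that of all genes (49.6%), but its direction differed: 19.8% of all genes rose and 29.9% fell. Under median-of-ratios scaling 26.5% of all genes rose and 23.5% fell. OSBPL10, an oxysterol-binding protein, was at 12.7, 13.6 and 14.3 against 7.47, 5.52 and 5.18 (1.05), and CAV1, the cholesterol-binding coat protein of caveolae, at 1286, 1264 and 1299 against 2241, 2285 and 2320 (-0.83). Of 7 tested genes of esters and lipid droplets 2 rose and 2 fell, where 19.8% and 29.9% of all genes did, among them the triglyceride enzyme DGAT2 (1.87, 2.82 and 2.41 against 1.16, 0.365 and 0.398; 1.06) and the lipase LIPE (1.19, 0.495 and 0.481 against 3.51, 3.82 and 3.59; -1.45). With a pseudocount of 5 or 0.1 these became 0.39 or 1.87 for DGAT2 and -0.60 or -2.29 for LIPE.

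**Figure D4:**
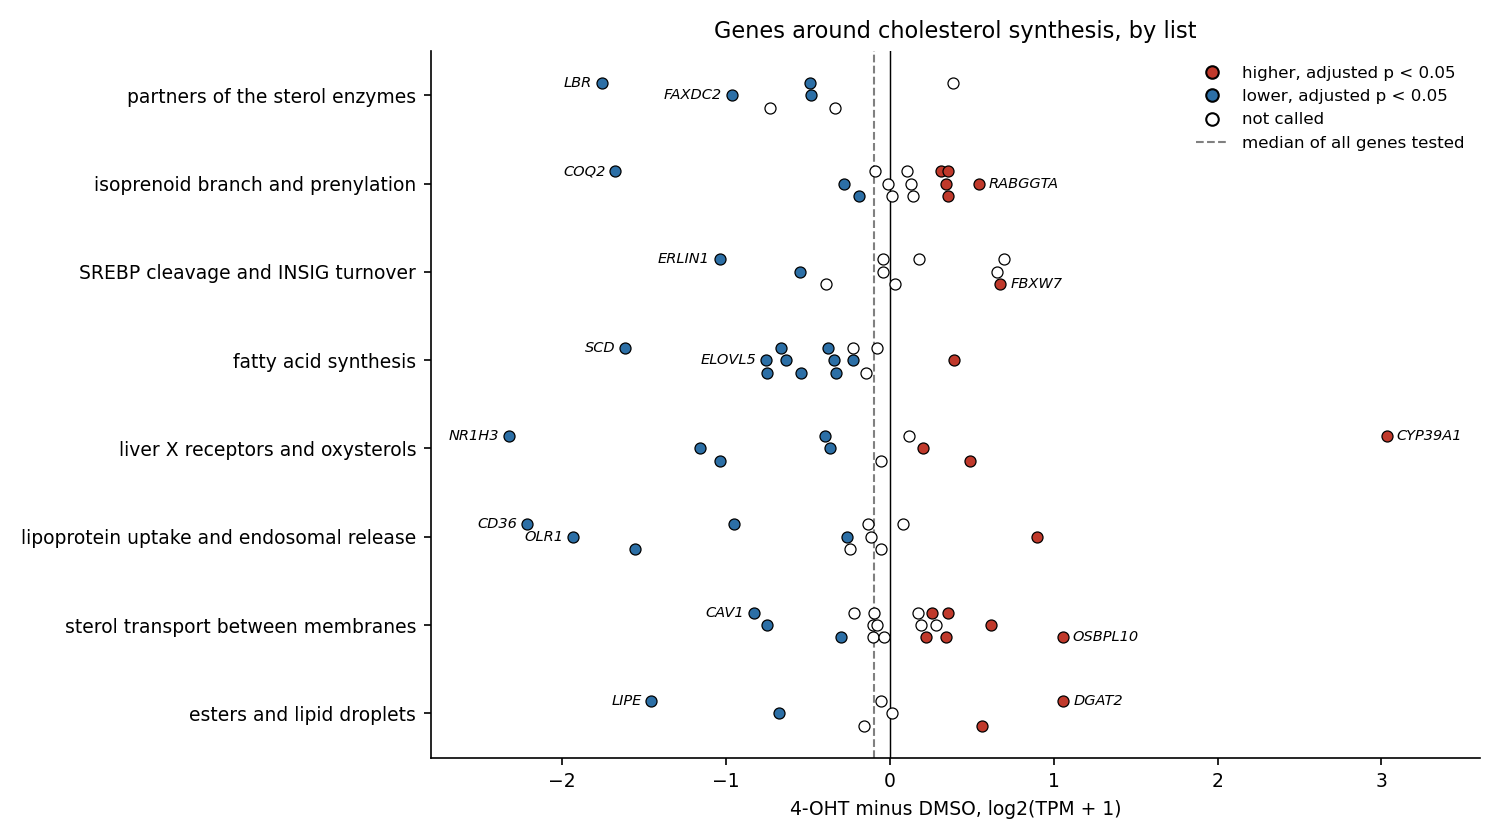
Log2 fold change (4-OHT minus DMSO, log2(TPM + 1)) of the tested genes of 8 neighbouring lists, a point for each gene, coloured as called higher (red), lower (blue) or not called (white), with the median of all genes as a dashed line. Fatty acid synthesis lies mostly to the left, with SCD at -1.61, while the sterol transport list lies on both sides of 0.

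As checks of the series, HRAS, the introduced gene, stood at 1222 to 1316 TPM in 4-OHT and 908 to 956 in DMSO, a row that does not part the introduced from the native transcript. All 8 fibroblast markers were above 1 TPM and summed to 18984 to 19395 TPM in 4-OHT and 19994 to 20604 in DMSO, of which VIM makes up more than any other. Behind the close sums 5 of the 8 fell and 3 rose (4 and 3 under median-of-ratios scaling, 5 and 2 under quantile scaling, with no filter or with no variance trend). The mean level differed by -46.8% for COL3A1, -51.6% for DCN, -34.8% for COL1A2, -33.4% for LUM and -12.3% for COL1A1, and by 64.3% for PDGFRB, 34.1% for THY1 and 10.9% for VIM. The 4 keratinocyte and epithelial markers summed to 0.58 to 0.779 against 1.45 to 1.64, with KRT5, KRT14 and CDH1 under 0.1 TPM in every library. The 3 endothelial markers summed to 0.825 to 1.42 against 0.405 to 0.616, and the 4 melanocyte markers to 0.647 to 1.01 against 1.39 to 2.64, with TYR and DCT listed at 0. The 4 immune markers summed to 54.6 to 63.6 against 58.8 to 87.6, nearly all of it CD68, which fibroblasts also express. The 3 smooth muscle and pericyte markers summed to 21.5 to 28.8 against 3.48 to 4.71, carried by RGS5, with MYH11 and DES under 1 TPM in all libraries. The part of such cells in the cholesterol genes was not tested.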

How the data were processed

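Bulk RNA-seq libraries of 3 4-OHT and 3 DMSO samples were read as TPM, computed and deposited by the authors. The submitters' processing notes name Trim Galore 0.6.6, STAR, StringTie and the build GRCh38. For annotation and strand setting: not given in the sources used here. The DMSO replicate 3 column is TPM too as deposited by the authors, with 1 value slightly below 0, set to 0. Each library was made with a KAPA kit from 1 µg RNA, per the labels' protocols. The read depth behind TPM is unknown, and detection limits were not set.

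Genes averaging 1 TPM or more in the 6 libraries were tested on log2(TPM + 1) with limma 3.58.1 in R 4.3.3 (eBayes with a variance trend, no covariates, two-sided). Benjamini-Hochberg adjustment covered all genes tested, and an adjusted p under 0.05 was called. The fit was also run on simulated data with far fewer changed genes than were called here. That run cannot show how the fit performs on these data. No label says that replicates were separate cultures, so p-values reflect only the spread among these libraries, which may be technical. The members and the lists were chosen with earlier results of these data known. Every member is named, and of each of the 8 other lists the 2 genes with the largest change among those called with groups that do not overlap; NR1H3 is among these, and HRAS, NR1H2, the overlapping genes, HSD17B7P2 and single markers were chosen after their values were seen or as checks. Ratios were compared by an exact permutation test and were not part of the planned comparisons. Positions are from GENCODE 29, and promoter sequences from RefSeq. Alternatives changed the pseudocount (0.1, 5), filter (none, 5 TPM), scaling, variance trend, block and set of libraries. Python 3.11.15, pandas 2.3.3, numpy 2.4.6 and matplotlib 3.10.9 were used.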

Additional observations from a re-analysis of the deposited data

How the results depend on the processing

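Under 14 alternatives 16 of the 18 called members kept their call and direction, FDFT1 and SREBF2 lost theirs under some, and 7 of the 12 uncalled members were called under at least one. All 16 named genes of the other lists kept their calls wherever they were tested, though the log2 fold changes of the low CYP39A1, CD36, OLR1, LIPE and DGAT2 moved by over 1.5 times with the pseudocount. The members lower in 4-OHT numbered 15 to 18, and those higher 1, or 2 with no filter on low values, where 2 of export and storage were higher. Leaving out a library gave 0 to 1 lower of export and storage, 0 to 1 higher among the partners of the sterol enzymes, 1 to 2 higher in SREBP cleavage and INSIG turnover, and 1 to 4 higher in sterol transport. SREBP cleavage and INSIG turnover had 3 higher with a pseudocount of 5 and under both scalings and 2 with a filter of 5 TPM. Lipoprotein uptake had 3 lower under median-of-ratios scaling. Sterol transport had 1 higher with no filter and 3 with no variance trend. Esters and lipid droplets had 1 higher and 1 lower with the 5 TPM filter, which tested fewer genes. Directions of members that were not called turned under median-of-ratios scaling for FDPS (log2 fold change 0.0203), CYP51A1 (0.0498), TM7SF2 (0.005), NSDHL (0.0068) and SCAP (0.0282), and under quantile normalization for TM7SF2 (0.0593). Leaving out single libraries gave -0.375 to 0.0891 for CYP51A1, -0.214 to 0.0183 for TM7SF2 and -0.0108 to 0.0547 for INSIG2. Beyond what the construction of a setting shows, the cause was not tested.

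The labels state no link between same-numbered libraries of the groups. The deviations from the group means correlated between -0.0573 and 0.0497 over all pairs of a 4-OHT and a DMSO library. Of the 4-OHT libraries, replicate 1 correlated best with its own number (0.0475), and replicates 2 and 3 did not. Such values cannot show whether the libraries were paired. With the replicate block 2819 genes were higher and 4246 lower, against 3018 and 4561 without it, and among the members 18 were lower and 1 higher, NPC2 being called (adjusted p = 0.0259) with the block.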
